A study of Homo sapiens with 8 samples.

Results

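The ZIC genes ZIC4 and ZIC1 on chromosome 3, and ZIC5 and ZIC2 on chromosome 13, were followed through a ChIP-seq study of 2 histone marks in HAP1 cells. HAP1 is a near-haploid human line that came from KBM-7, a line of chronic myeloid leukaemia. The members were the regions of the deposited table that overlap 2 hg19 windows, chromosome 3 from 147.05 to 147.2 Mb and chromosome 13 from 100.58 to 100.68 Mb. The rule found 8 of 34703 regions, 3 in the ZIC4-ZIC1 window and 5 in the ZIC5-ZIC2 window. They were compared with the 24 regions that lie within 500 kb on either side, 5 around ZIC4-ZIC1 and 19 around ZIC5-ZIC2. The windows are positions, but the loci were selected on measured values, the fall of H3K27me3 between RING1A/B-DKO and wild-type cells, since 1 of the members had been among the largest falls of the table. The changes between RING1A/B-DKO and wild-type cells in these windows are therefore a description, with no p-value given for them.

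The 4 groups, of 2 libraries each, were H2AK119ub in RING1A/B-DKO cells, H2AK119ub in wild-type control cells, H3K27me3 in RING1A/B-DKO cells and H3K27me3 in wild-type control cells. Per the labels' protocols, the RING1A/B-DKO cells were made from HAP1 cells already lacking RING1A, by CRISPR editing of RING1B (RNF2). Colonies from sorted single cells were screened by immunoblot for absence of RING1B. The labels call the samples biological duplicates. The number of RING1A/B-DKO clones behind them is not stated there, so the spread is between cultures and may not cover clones. The H3K27me3 antibody named in the sample labels is not the one in the protocol, and the protocol states its fly chromatin reference for another cell line.

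ZIC proteins are zinc finger transcription factors related to the GLI proteins that mediate Hedgehog signalling, and they act in the early neural plate, the neural crest and the cerebellum. Loss of ZIC2 is a known cause of holoprosencephaly in humans, and deletions that remove ZIC1 and ZIC4 together have been linked to Dandy-Walker malformation of the cerebellum. Outside the tissues that use them, genes of this kind are typically covered by Polycomb marks. RING1A and RING1B are the E3 ligases of Polycomb repressive complex 1 and write H2AK119ub, monoubiquitinated histone H2A. Polycomb repressive complex 2 writes H3K27me3, trimethylated histone H3, and a form of that complex can bind H2AK119ub.

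Both gene pairs are head to head. In the RefSeq annotation (GRCh38.p14) ZIC4 and ZIC5 are on the minus strand, ZIC1 and ZIC2 are on the plus strand, and the partners of each pair are adjacent protein-coding genes. PLSCR5 is the nearest symbol-named protein-coding gene before ZIC4, and AGTR1 follows ZIC1. CLYBL stands before ZIC5 and PCCA follows ZIC2. Sequences are shown because Polycomb complexes are known to be recruited to unmethylated CpG-rich DNA. All 4 genes matched the RefSeq promoter table, with 9 starts. For each gene the start nearest its partner is printed, as the 250 bases before it, 5′ to 3′ on the strand of the gene. Capitals mark every CG dinucleotide, which reads the same on both strands. The windows are chr3:147406544-147406793 (minus) for ZIC4, chr3:147409115-147409364 (plus) for ZIC1, chr13:99971910-99972159 (minus) for ZIC5 and chr13:99981534-99981783 (plus) for ZIC2, all on GRCh38.p14.
ZIC4: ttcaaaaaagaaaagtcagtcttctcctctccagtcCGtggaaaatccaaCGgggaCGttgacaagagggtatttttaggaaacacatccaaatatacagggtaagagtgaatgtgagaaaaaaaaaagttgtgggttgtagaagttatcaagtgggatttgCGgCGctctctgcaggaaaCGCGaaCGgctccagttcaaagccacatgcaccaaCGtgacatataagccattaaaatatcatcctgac
ZIC1: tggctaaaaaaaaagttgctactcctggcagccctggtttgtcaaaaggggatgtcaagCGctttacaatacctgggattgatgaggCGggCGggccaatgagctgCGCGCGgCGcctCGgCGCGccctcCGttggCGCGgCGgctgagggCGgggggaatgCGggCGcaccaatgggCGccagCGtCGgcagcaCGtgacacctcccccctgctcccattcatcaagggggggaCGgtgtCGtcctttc
ZIC5: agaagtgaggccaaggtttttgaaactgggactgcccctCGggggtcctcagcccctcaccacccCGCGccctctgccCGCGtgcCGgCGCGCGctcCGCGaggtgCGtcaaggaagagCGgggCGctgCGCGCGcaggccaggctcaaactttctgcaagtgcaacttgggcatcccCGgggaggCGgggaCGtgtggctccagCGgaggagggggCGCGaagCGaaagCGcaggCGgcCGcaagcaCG
ZIC2: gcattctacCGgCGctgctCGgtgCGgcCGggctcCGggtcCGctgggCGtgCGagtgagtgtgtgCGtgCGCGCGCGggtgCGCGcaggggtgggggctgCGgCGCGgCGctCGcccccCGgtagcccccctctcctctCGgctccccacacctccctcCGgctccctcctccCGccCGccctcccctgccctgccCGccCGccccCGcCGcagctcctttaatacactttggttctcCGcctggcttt

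The ZIC4 start printed held 9 CG dinucleotides at a GC content of 42.8%, and 54.0% of 34941 RefSeq promoter windows of the same length held at least as many. The 3 other ZIC4 starts, not printed, held 7, 2 and 16, and the median window held 11. The starts printed for the other genes are richer. ZIC1 held 23 (64.4% GC), a number reached by 25.8% of promoters. ZIC5 held 28 (70.4% GC), reached by 15.8%, with 21 and 12 at its other starts, and ZIC2 held 31 (75.6% GC), reached by 10.8%. At least 1 CG was present in 93.9% of all windows. The deposited regions are on hg19, and positions were not converted between builds, so these starts were not placed inside or outside the regions that follow.

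The values are the authors' normalized counts per region and library. The table held 459.8 Mb of regions on 23 chromosomes. Totals over all regions were 17159 and 20938 for H2AK119ub in RING1A/B-DKO cells, against 1575661 and 1866278 in wild-type cells. For H3K27me3 they were 3788824 and 3224813 in RING1A/B-DKO cells, against 2393140 and 2456126 in wild-type cells. The sequencing depth is unknown, and differences in level between libraries rest on the authors' normalization. The regions carry no gene names, so neither the edited genes nor markers of the cell line were checked.

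In RING1A/B-DKO cells all 8 ZIC regions were nearly empty of H2AK119ub and had lost most of their H3K27me3. Summed over the 8 regions (89.4 kb), H3K27me3 was 129 ± 21.2 normalized counts in RING1A/B-DKO cells and 840.5 ± 3.54 in wild-type cells (SD, n = 2 each), which left 15.3%. Across the whole table the same mark stood at 145% of wild type. H2AK119ub was 6 ± 2.83 in RING1A/B-DKO cells and 672 ± 38.2 in wild-type cells (SD, n = 2 each), which left 0.893%, beside 1.11% over the whole table. The fall of H3K27me3 was uneven, from 27.9% of wild type left in the region least affected to 2.36% in the region most affected.

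**Figure D1:**
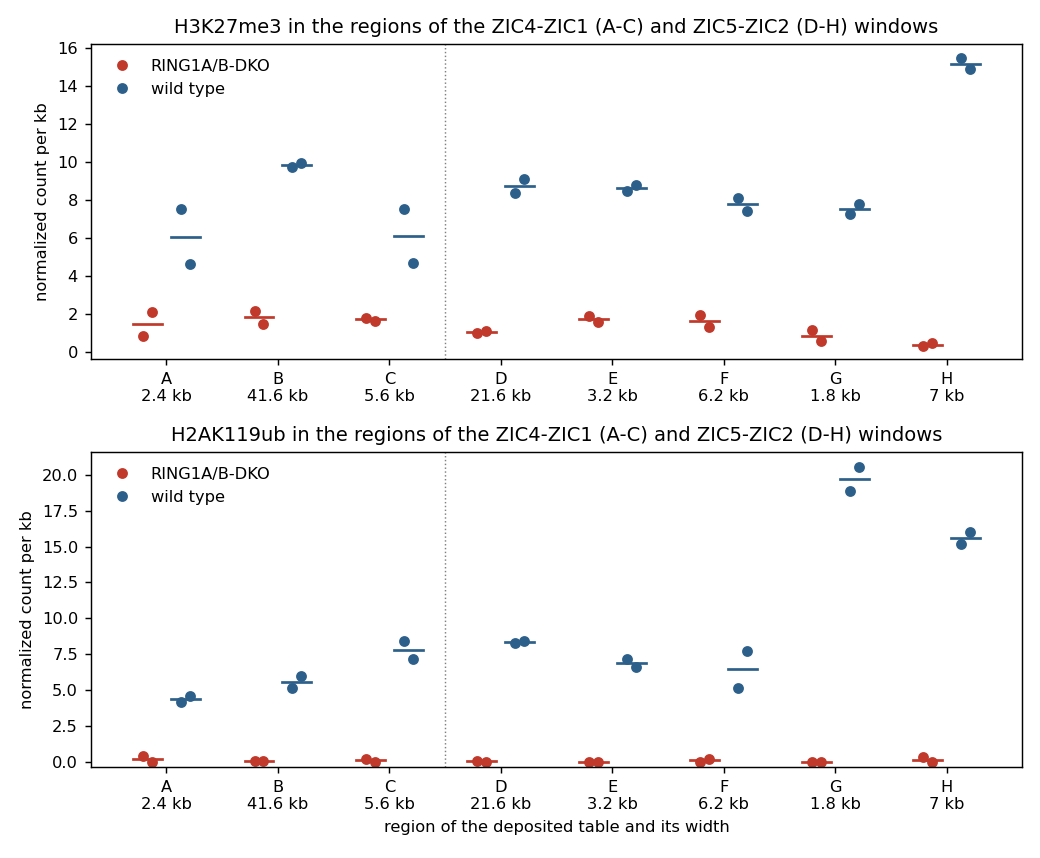
Normalized count per kb (y axis) of H3K27me3 (top) and H2AK119ub (bottom) in the 8 regions A to H of the ZIC windows, with the width of each region under its letter. Points are single libraries, short lines are means of 2 libraries, red is RING1A/B-DKO and blue is wild type. In H3K27me3 the RING1A/B-DKO points all lie at or below 2.14 and the wild-type points at or above 4.58, and region H has the highest wild-type and the lowest RING1A/B-DKO level.

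Within the ZIC4-ZIC1 window, region B (chromosome 3 from 147065601 to 147107200, 41.6 kb) held most of the signal. Its H3K27me3 was 89 and 60 normalized counts in RING1A/B-DKO cells, against 405 and 413 in wild-type cells. The groups lay far apart, 5.49-fold lower in RING1A/B-DKO cells, with a log2 fold change of -2.47 ± 0.18 (SE, limma). Its H2AK119ub was 3 and 3 in RING1A/B-DKO cells, against 214 and 249 in wild-type cells, a log2 fold change of -5.86 ± 0.16 (SE, limma). Region B kept 18.2% of its wild-type H3K27me3 and 1.30% of its H2AK119ub.

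Region C (chromosome 3 from 147121201 to 147126800, 5.6 kb) had 10 and 9 normalized counts of H3K27me3 in RING1A/B-DKO cells, against 42 and 26 in wild-type cells. The groups did not overlap, but the wild-type libraries differed from each other, and the log2 fold change of -1.70 ± 0.41 (SE, limma) was the smallest of the 8. H2AK119ub in region C was 1 and 0 in RING1A/B-DKO cells, against 47 and 40 in wild-type cells. With 1 normalized count over both RING1A/B-DKO libraries, the fold of 87.0 has a counting interval from 15.2 to 3475 (95%, exact). In wild-type cells the mean count of H2AK119ub in region C was 1.28 times that of H3K27me3, against a median of 0.714 over all regions. This ratio stood at percentile 91.0 of the table, but the libraries of the 2 marks overlapped. The ratio sets 2 antibodies against each other, so it does not show which mark is more abundant.

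Region A (chromosome 3 from 147054201 to 147056600, 2.4 kb) is short and low. It had 2 and 5 normalized counts of H3K27me3 in RING1A/B-DKO cells, against 18 and 11 in wild-type cells, a log2 fold change of -1.83 ± 0.62 (SE, limma). H2AK119ub was 1 and 0 in RING1A/B-DKO cells, against 10 and 11 in wild-type cells. The groups did not overlap in either mark, though the counts are small enough that the H2AK119ub fold of 21.0 has a counting interval from 3.38 to 868 (95%, exact).

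In the ZIC5-ZIC2 window, region H (chromosome 13 from 100643001 to 100650000, 7 kb) carried the deepest loss. It had 2 and 3 normalized counts of H3K27me3 in RING1A/B-DKO cells, against 108 and 104 in wild-type cells. The log2 fold change of -4.95 ± 0.40 (SE, limma) ranked at place 7 from the lowest among 32209 tested regions, which is how the locus came to be chosen. As a ratio this was 42.4-fold, with a counting interval from 17.9 to 132 (95%, exact) that takes normalized counts as reads. H2AK119ub was 2 and 0 in RING1A/B-DKO cells, against 106 and 112 in wild-type cells. In wild-type cells region H stood high in both marks, at 15.1 normalized counts per kb of H3K27me3 (place 113 of 34703 from the highest) and 15.6 of H2AK119ub (place 141). In RING1A/B-DKO cells its H3K27me3 density of 0.357 per kb was at percentile 0.947 of the table.

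Region G (chromosome 13 from 100630401 to 100632200, 1.8 kb) lies 10.8 kb before region H and had a different make-up. Its wild-type H2AK119ub was 34 and 37 normalized counts, with 0 and 0 in RING1A/B-DKO cells, which is at least 23.7-fold lower against a floor of 3 counts over both libraries, while the exact 95% interval used for the other regions begins at 18.8-fold. Per kb this was 19.7 in wild-type cells, place 47 of 34703. H3K27me3 was 2 and 1 in RING1A/B-DKO cells, against 13 and 14 in wild-type cells. In wild-type cells the mean count of H2AK119ub was 2.63 times that of H3K27me3. This ratio stood at percentile 99.4 of the table. The fall of H3K27me3 was 9.0-fold, with a counting interval from 2.77 to 46.4 (95%, exact), because so few counts were left.

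Region D (chromosome 13 from 100559201 to 100580800, 21.6 kb) overlaps the window by 801 bases. It had 21 and 23 normalized counts of H3K27me3 in RING1A/B-DKO cells, against 180 and 196 in wild-type cells, a log2 fold change of -3.04 ± 0.23 (SE, limma). Its H2AK119ub was 1 and 0 in RING1A/B-DKO cells, against 179 and 181 in wild-type cells. Replicates were close in both marks, and this was the lowest H2AK119ub log2 fold change among the 8 regions, at -7.00 ± 0.43 (SE, limma).

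Regions E (chromosome 13 from 100586001 to 100589200) and F (from 100596001 to 100602200) lie between D and G and kept more of their H3K27me3 than those regions. Region E had 6 and 5 normalized counts of H3K27me3 in RING1A/B-DKO cells, against 27 and 28 in wild-type cells, and region F had 12 and 8 in RING1A/B-DKO cells, against 50 and 46 in wild-type cells. The share left was 20.0% in region E and 20.8% in region F. H2AK119ub in region E was 0 and 0 in RING1A/B-DKO cells, against 23 and 21 in wild-type cells, at least 14.7-fold lower against the floor of 3 counts, with an exact 95% interval that begins at 11.4-fold. In region F it was 0 and 1 in RING1A/B-DKO cells, against 32 and 48 in wild-type cells. Intervals and floors cover counting error only.

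All 8 regions passed the filter on low values for both marks. For H2AK119ub they passed through the wild-type libraries alone, since no RING1A/B-DKO count was above 3. In H3K27me3 the same holds for A, E, G and H, where no RING1A/B-DKO library reached 10. Passing in this way favours a lower call. With limma and Benjamini-Hochberg adjustment at 0.05 over the whole table, all 8 were called lower in each mark. Of all tested regions, 22.8% were called lower in H3K27me3 and 100.0% in H2AK119ub (23699 of 23700). Both RING1A/B-DKO libraries lay below both wild-type libraries in 8 of 8 regions for H3K27me3, as in 29.4% of all regions, and in 8 of 8 for H2AK119ub, as in 99.3%. Since the loci were chosen with this contrast in view, nothing is read from the counts. The median log2 fold change of H3K27me3 was -2.32 over the 8 regions and 0.58 over all tested regions, and that of H2AK119ub was -5.08 and -4.74. When either wild-type H3K27me3 library was left out, 0 regions of the table were called (limma, Benjamini-Hochberg adjustment), beside 4870 and 4836 lower and 10015 and 10266 higher at an unadjusted p under 0.05 over the table, without replicates 1 and 2. With any 1 H3K27me3 library left out, the log2 fold changes of the 8 regions lay between -5.16 and -1.33 (limma), and not all 8 were then called. In each of these fits the lone library is assumed to vary like those of the other group.

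By wild-type H3K27me3 per kb the order was H (15.1), B (9.83), D (8.70), E (8.59), F (7.74), G (7.50), C (6.07) and A (6.04). Library ranges of D and E overlapped, as did those of F and G, of G and C and of C and A. H, B and E each stood apart from the next. By wild-type H2AK119ub the order was G (19.7), H (15.6), D (8.33), C (7.77), E (6.88), F (6.45), B (5.56) and A (4.38), and the ranges overlapped from D down to B while G, H and A stood apart. In RING1A/B-DKO cells H3K27me3 densities lay in a narrower band, between 1.79 in B and 0.357 in H, and in that order H alone stood apart from its neighbour. Regions G and H, the densest in wild-type H2AK119ub, had the lowest mean H3K27me3 in RING1A/B-DKO cells, although G overlapped D.

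**Figure D2:**
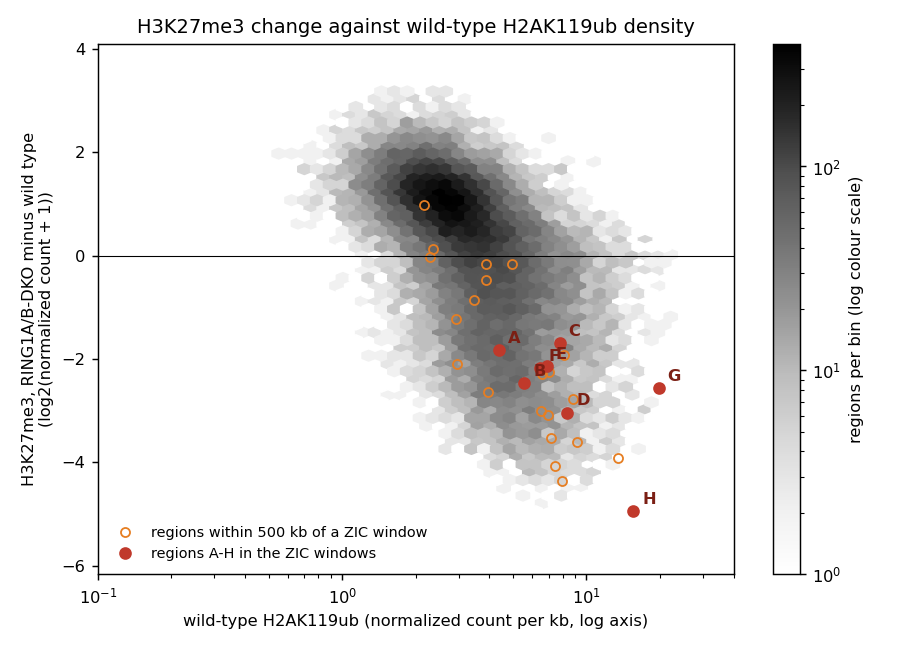
H3K27me3 log2 fold change, RING1A/B-DKO minus wild type (y axis), against wild-type H2AK119ub in normalized counts per kb (x axis, log scale). Grey bins count all tested regions, open orange circles are tested regions within 500 kb of a ZIC window, and red points are regions A to H. The 8 ZIC regions lie between -4.95 and -1.70, and G and H sit at the right edge of the cloud.

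Across the 8 regions, the rank correlation (Spearman's rho) of the H3K27me3 log2 fold change with H2AK119ub per kb in wild-type cells was -0.60. Over the 29 tested regions of both windows and their flanks it was -0.78, and over the 32209 tested regions of the table -0.61. With wild-type H3K27me3 density in place of H2AK119ub, rho was -0.76 over the 8 regions, -0.82 over the 29 and -0.84 over the table. These are descriptions. The points share the same libraries, neighbouring regions may belong to 1 domain, and wild-type H3K27me3 enters the fold change itself. The ratio of wild-type H2AK119ub to H3K27me3 had a rho of -0.24 with the change over the 8 regions and -0.42 over the 29. Over the table its sign was opposite, at 0.28. Width had a rho of -0.43 with the change over the 8 regions and 0.14 over the table.

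The flanks give the values around each window. Of the 19 regions flanking ZIC5-ZIC2, 16 were tested and 11 of those were called lower (limma, Benjamini-Hochberg adjustment), beside 22.8% of all tested regions, with a median log2 fold change of -2.54. The nearest region before the window, 42.0 kb away (100536201 to 100538000), had 4 and 3 normalized counts of H3K27me3 in RING1A/B-DKO cells, against 4 and 15 in wild-type cells, and was not tested. The nearest after it, 29.0 kb away (100709001 to 100711000), had 3 and 3 in RING1A/B-DKO cells, against 16 and 9 in wild-type cells, and was not tested either. The region from 100518401 to 100530200 had both the highest wild-type H3K27me3 density of these flanks and the lowest fold change. It held 7 and 5 in RING1A/B-DKO cells, against 134 and 149 in wild-type cells, a log2 fold change of -4.36 ± 0.32 (SE, limma). That is a loss close in size to that of region H, 4.24% left against 2.36%.

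Farther out on the same side, regions were not called lower under the authors' normalization. The region from 100135201 to 100138600, 441 kb before the window, had 30 and 21 normalized counts of H3K27me3 in RING1A/B-DKO cells, against 26 and 20 in wild-type cells. Its groups overlapped, its log2 fold change was 0.13 ± 0.36 (SE, limma), and no flanking region was denser in RING1A/B-DKO cells. H2AK119ub in it was 0 and 0 in RING1A/B-DKO cells, against 7 and 9 in wild-type cells. It and the 3 regions before it were not called, with 71.1% to 111% of wild-type H3K27me3 left. Their log2 fold changes, from -0.47 to 0.13, still lay below the median of 0.58 over all tested regions. Whether they would show a loss with rescaled columns was not tested. Their H2AK119ub was at most 2 normalized counts per library in RING1A/B-DKO cells, where the whole table kept 1.11% of this mark. In wild-type cells it was 2.35 to 4.96 per kb, against 9.71 over the ZIC5-ZIC2 window. Whether the marks are linked in these regions was not tested.

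**Figure D3:**
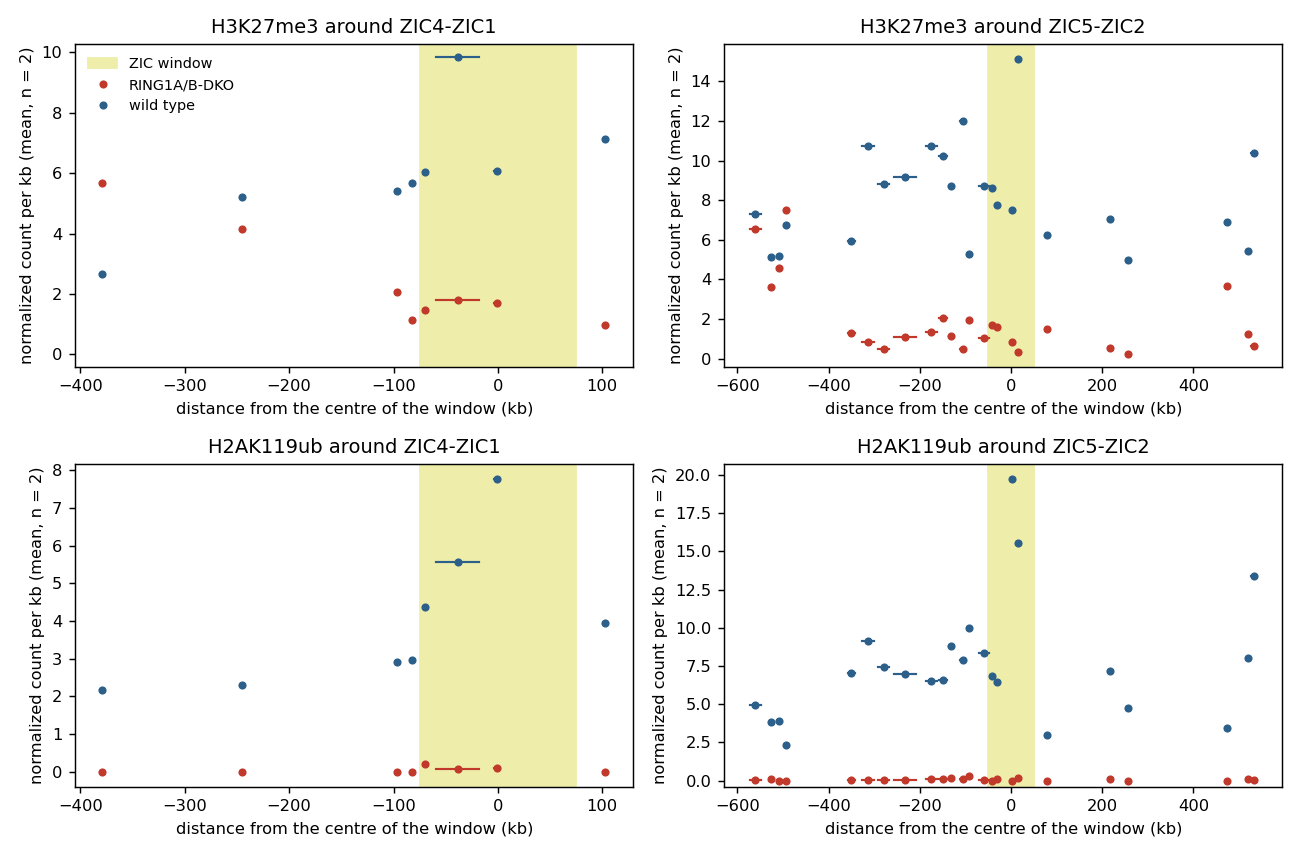
Mean normalized count per kb (y axis, n = 2 libraries) of H3K27me3 (top) and H2AK119ub (bottom) against distance from the centre of each ZIC window in kb (x axis), for ZIC4-ZIC1 (left) and ZIC5-ZIC2 (right). Points mark region midpoints, lines region widths, red is RING1A/B-DKO, blue is wild type, and the shaded band is the window. Low RING1A/B-DKO H3K27me3 extends beyond both windows, and the 4 leftmost regions of the ZIC5-ZIC2 panel lie near their wild-type levels.

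Around ZIC4-ZIC1 the marked regions were sparse, 15.2 kb in all within 500 kb. The nearest region before the window (147041601 to 147043800) had 4 and 1 normalized counts of H3K27me3 in RING1A/B-DKO cells, against 13 and 12 in wild-type cells, and was called lower. The region after it (147225401 to 147230600) had 5 and 5 in RING1A/B-DKO cells, against 42 and 32 in wild-type cells. With a log2 fold change of -2.65 ± 0.45 (SE, limma), it had the lowest fold change and the highest wild-type density of these flanks and was called lower. The region from 146744201 to 146747200 had 22 and 12 in RING1A/B-DKO cells, against 10 and 6 in wild-type cells. Its log2 fold change of 0.98 ± 0.50 (SE, limma) was the highest of these flanks and was not called. In all, 2 of 5 tested flank regions were called lower, too few to set against the 22.8% of all tested regions, and none of the 5 passed the filter for H2AK119ub. Both called regions passed the H3K27me3 filter through the wild-type libraries alone, which favours a lower call.

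To set window against flank without any scaling between libraries, the H3K27me3 per kb in the window was divided by that in the flanks of the same library. For ZIC4-ZIC1 the ratio was 0.632 and 0.756 in RING1A/B-DKO cells, against 1.70 and 1.68 in wild-type cells. For ZIC5-ZIC2 it was 0.519 and 0.597 in RING1A/B-DKO cells, against 1.09 and 1.09 in wild-type cells. The ratio differed by -1.29 and -0.97 on the log2 scale, and the groups did not overlap. Since the loci were chosen on a fall of H3K27me3 in the same contrast, this direction was favoured by the choice and no test is given. Without region H, left out after the values were seen, the ZIC5-ZIC2 difference was -0.59.

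How far out the flanks were taken decided the size of this difference. With 250 kb on either side the ZIC5-ZIC2 ratio was 0.927 and 1.13 in RING1A/B-DKO cells, against 0.996 and 1.00 in wild-type cells, a difference of 0.03 on the log2 scale, and those flanks kept 10.7% of their H3K27me3 as the window kept 10.8%. At that distance no difference between the ZIC5-ZIC2 window and the regions next to it was resolved. Around ZIC4-ZIC1, widening the flanks to 1000 kb took in 19 regions, 12 of them called higher and 3 lower, while 47.3% and 22.8% of all tested regions were called higher and lower. Those flanks stood at 191% of wild type in sum, and the window ratio was 0.289 and 0.309 in RING1A/B-DKO cells, against 2.86 and 3.07 in wild-type cells.

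**Figure D4:**
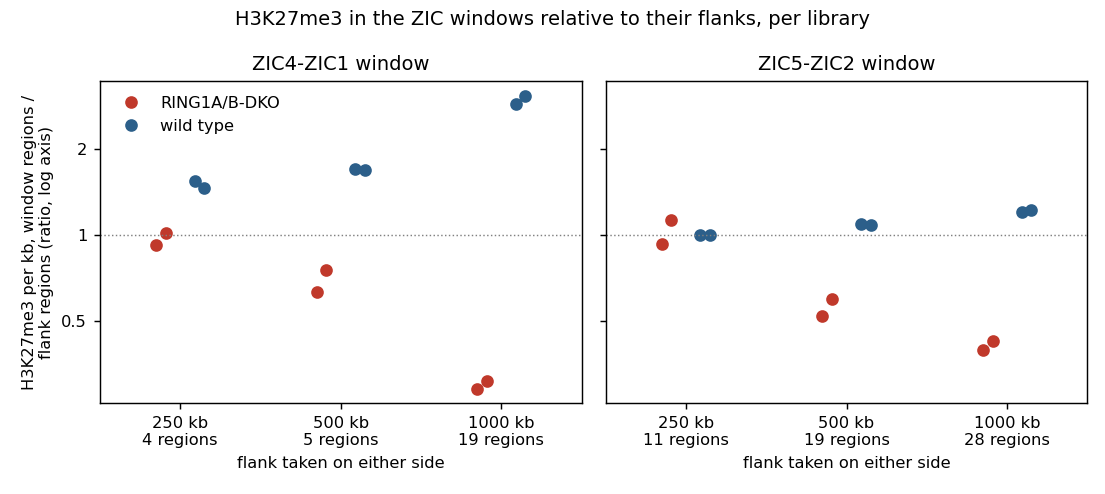
H3K27me3 per kb in the regions of each ZIC window divided by that in its flanks (y axis, ratio on a log axis), for flanks of 250, 500 and 1000 kb on either side (x axis, with the number of flank regions). Each point is 1 library, red is RING1A/B-DKO and blue is wild type, and the dotted line marks equal density. The groups overlap for ZIC5-ZIC2 at 250 kb and lie apart in the other 5 settings.

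For H2AK119ub no such difference was resolved. Summed over the ZIC4-ZIC1 window it was 5 and 3 normalized counts in RING1A/B-DKO cells, against 271 and 300 in wild-type cells, and its flanks held 0 and 0, against 31 and 61. Over the ZIC5-ZIC2 window it was 3 and 1 in RING1A/B-DKO cells, against 374 and 399 in wild-type cells, and its flanks held 10 and 17, against 1655 and 1923. With 1 added to each sum, the window-to-flank ratio changed by -0.39 and -0.11 on the log2 scale with groups that overlapped, and sums this small cannot resolve a difference.

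The gene pairs differed from each other in how much H3K27me3 was left, 19.1% in the ZIC4-ZIC1 window and 10.8% in the ZIC5-ZIC2 window. In wild-type cells both windows were marked to a similar density, 9.22 ± 0.214 normalized counts per kb for ZIC4-ZIC1 and 9.62 ± 0.178 for ZIC5-ZIC2 (SD, n = 2). In RING1A/B-DKO cells ZIC4-ZIC1 had 1.76 ± 0.385 and ZIC5-ZIC2 had 1.04 ± 0.0533 (SD, n = 2). The ratio of ZIC4-ZIC1 to ZIC5-ZIC2 within a library was 1.88 and 1.48 in RING1A/B-DKO cells, against 0.987 and 0.931 in wild-type cells. This is a difference of 0.80 on the log2 scale without overlap, given with no test because it includes region H. Without region H the ZIC5-ZIC2 window kept 14.1% and the difference was 0.43. Wild-type H2AK119ub was lower over ZIC4-ZIC1, at 5.76 ± 0.413 per kb, than over ZIC5-ZIC2, at 9.71 ± 0.444 (SD, n = 2), and its part in the difference was not tested.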

How the data were processed

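Chromatin from HAP1 cells was immunoprecipitated for H2AK119ub or H3K27me3 and sequenced. Alignment to hg19 and later steps used Bowtie2, Picard, SAMtools, deepTools and bedtools, per the submitters' processing notes, which give no versions or order. The methods of region calling and normalization are not given in the sources used. The deposited values are normalized counts, a score in whole numbers that the authors had already normalized, per the file headers. The deposited log2 values were the same counts with 0.5 added (largest deviation 4.999e-09), and neither these nor the deposited p-value columns, which come from the authors, were used. Positions are printed 1-based, after adding 1 to the deposited starts and ends.

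Each mark was fitted over the whole table with limma 3.58.1 in R 4.3.3, with a mean-variance trend, on log2(normalized count + 1). Regions needed a normalized count of 10 in at least 2 of the 4 libraries and a sum of 15, which left 23700 regions for H2AK119ub and 32209 for H3K27me3. Fold changes are RING1A/B-DKO minus wild type and understate the change of low regions. Window ratios were formed within each library and are given with no test, since the loci were chosen on the same contrast and 2 against 2 libraries could not pass 0.05 in an exact permutation test. The members, lists and tests were chosen with earlier results of these data known. All 8 members are named, and in each flank the nearest region on either side and those with the highest wild-type density, highest RING1A/B-DKO density, largest fall and largest rise of H3K27me3. No hg19 gene annotation was used here.

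Replicate numbers are shared between groups, but nothing in the labels pairs them. Alternatives were other pseudocounts, no filter, no trend, rescaled columns, a replicate block, other flank widths, a midpoint rule, leaving out each library and, added after the data were seen, leaving out region H.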

Additional observations from a re-analysis of the deposited data

How the results depend on the processing

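Only values over the called regions were used, so sequencing depth is unknown, and with 2 libraries a group no permutation test could pass 0.05. All 8 ZIC regions were called lower in H3K27me3 (limma) with every pseudocount, without the filter, without the trend, with both rescalings and with the replicate block, as were all 7 regions left by the midpoint rule, which drops region D. Over the whole table these settings called between 6993 of 32209 tested regions lower (without the trend) and 11207 of 32125 (columns scaled to the same total). With any 1 library left out, the 8 log2 fold changes lay between -5.16 and -1.33. The calls did not all hold in those fits, which assume that the lone library varies like those of the other group. Scaling columns to the same total moved the median log2 fold change of all regions from 0.58 to 0.04 and the share of higher among all calls from 67.5% to 46.0% (46.9% with median-of-ratios factors). The 8 ZIC regions then ran from -5.39 to -2.20.

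H2AK119ub calls were 8 of 8 with both other pseudocounts, without the filter, without the trend and with the replicate block, and 7 of 7 by the midpoint rule. Nearly all regions of the table were called lower in these settings too, 23693 of 23700 with a pseudocount of 0.5 and 33846 of 34701 without the filter. Median-of-ratios factors were not run for this mark. Scaling columns to the same total left 1 of 6 tested regions called lower, beside 5017 of 17475 over the table, and a log2 fold change of 0.23 in region B. The totals were 17159 and 20938 in RING1A/B-DKO cells, against 1575661 and 1866278 in wild-type cells. Making them equal removes by construction a loss shared by the table, so this setting cannot show whether H2AK119ub fell. Leaving out either wild-type library gave 3 calls, and leaving out either RING1A/B-DKO library gave 8. Of 166 other values of single regions, 46 moved by more than the replicate SD, 1 reversed (that of region B), and the rest moved by less or not at all. Dropping the filter or the trend, or adding the replicate block, cannot change a log2 fold change here. The values from those settings were therefore fixed in advance and say nothing of stability.

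The window-to-flank difference of H3K27me3 ranged from -3.31 to -0.39 for ZIC4-ZIC1 and from -1.56 to 0.033 for ZIC5-ZIC2, where only flanks of 250 kb reversed it. Leaving out 1 library gave -1.42 to -1.16 and -1.07 to -0.86. The difference between the gene pairs ran from 0.43 (without region H) to 1.17, and from 0.63 to 0.98 without 1 library. Without region H the ZIC5-ZIC2 window-to-flank difference was -0.59. For H2AK119ub the ZIC4-ZIC1 difference reversed with flanks of 1000 kb (0.087) and ran from -0.79 to 0.013 without 1 library. That of ZIC5-ZIC2 reversed by the midpoint rule (0.66) and ran from -0.97 to 0.74 without 1 library. Median densities of H2AK119ub could not be compared, since a median in RING1A/B-DKO cells was 0. Same-numbered libraries did not deviate together over all regions (r = 0.01 for H3K27me3 and -0.01 for H2AK119ub). The replicate block left both counts at 8. It cannot change the ratio differences of -1.29, -0.97, -0.39, -0.11 and 0.80, since these are differences of group means either way.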

Other observations

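Consecutive regions of the table with a lower mean H3K27me3 in RING1A/B-DKO than in wild-type cells formed stretches through both gene pairs. Their spans include sequence between regions, which has no values. Their limits were set after the values were seen, so no test was made. Regions entered a stretch by their lower H3K27me3, which favoured both the lower calls and the small shares left. These numbers are therefore a description only. Of all tested regions, 22.8% were called lower in H3K27me3 (limma). Both RING1A/B-DKO libraries lay below both wild-type libraries in 29.4% of all regions. On chromosome 13 the stretch ran through 21 regions from 100272001 to 101216000 (944 kb), 17 of them called lower (limma) and 3 not tested. It summed to 302 and 236 normalized counts in RING1A/B-DKO cells, against 2304 and 2364 in wild-type cells, which left 11.5%. Where both RING1A/B-DKO libraries had to lie below both wild-type libraries, it held 12 regions from 100559201 (656.8 kb), 9 called lower and 2 not tested, and broke off at the untested region from 100536201 just before the window. Beside the longer stretch, the region just before had a log2 fold change of 0.13 and the region just after, from 101330801 to 101334400, one of 1.54. On chromosome 3 the stretch held 8 regions from 146878801 to 147727600 (848.8 kb), 6 of them called lower (limma). Most of that span lies outside any region, and none lies between 147230600 and the last of the stretch. The first region had 14 and 6 normalized counts in RING1A/B-DKO cells, against 4 and 21 in wild-type cells. Its groups overlapped, with a log2 fold change of -0.03 ± 0.56 (SE, limma). Here the whole stretch is summed. The stretch summed to 140 and 98 in RING1A/B-DKO cells, against 602 and 599 in wild-type cells, which left 19.8%. Under the stricter rule it held 7 regions (700.0 kb), 6 called lower. Beside the longer stretch, the region just before had a log2 fold change of 0.98 and the region just after, from 147856401 to 147860200, one of 0.38.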
